A study of Mus musculus with 11 samples.

Results

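The unfolded protein response was followed through 10 genes of the mouse: the endoplasmic reticulum chaperones Hspa5, Hsp90b1 and Calr, the disulfide isomerases Pdia4 and Pdia6, the transcription factors Xbp1, Atf4 and Ddit3, the degradation factor Herpud1 and the co-chaperone Dnajb9. They were chosen by gene symbol, and all 10 were found among the 14739 genes of the expression table. RNA came from sorted Tmem119-positive cells of the cerebrum, which the labels call cerebral microglia, and each library was one bulk preparation. The series asks what losing a copy of Csf1r (a receptor that microglia need to survive), of Csf2 (the cytokine GM-CSF), or of both does to the microglia of old mice. The heterozygous groups were Csf1r+/- (Csf1r_het, 3 libraries), Csf2+/- (Csf2het, 3 libraries) and Csf1r+/-; Csf2+/- (Dhet, 2 libraries), and the reference was wild type (WT, 3 libraries). Every group had the C57BL/6 background and no drug or other treatment is named. Ages were 21 months in 8 of the mice, 20 months for Csf1r_het 1, and 24 months for Csf1r_het 2 and Dhet 2. The labels do not say how the alleles were made, or whether animals were pooled or shared litters, so the p-values measure the spread between these libraries only.

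The unfolded protein response is the reaction of a cell to unfolded proteins in its endoplasmic reticulum. The sensors Ire1, Perk and Atf6 detect them: Ire1 splices Xbp1 mRNA into its active form, Perk slows translation while favouring translation of Atf4, and cleaved Atf6 enters the nucleus. Their targets are chaperones, folding enzymes, degradation factors and, under lasting stress, Ddit3 (CHOP). Much of Xbp1 and Atf4 activity is set by splicing and translation, and the gene totals measured here separate neither spliced from unspliced Xbp1 nor protein from mRNA.

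The promoters of the chaperone genes carry the best known DNA element of the response, and the matching stretches are shown because they mark which of the 10 genes hold it or its shorter form. Windows of 250 bases before to 50 bases after the RefSeq start (GRCm38.p6) were found for all 10 genes by symbol. The endoplasmic reticulum stress element, ERSE, was searched on both strands as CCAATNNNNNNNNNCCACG. It stood in the windows of Hspa5, Hsp90b1 (at 2 places), Calr and Pdia6, and in 39 of 32851 windows in all (0.119%). The shorter ERSE-II, also searched on both strands, stood in the Herpud1 window and in 12 windows in all (0.0365%). Each stretch below runs 5′ to 3′ on the strand of the gene, with the element in capitals. In the second Hsp90b1 stretch and in that of Calr the element lies on the opposite strand.
Hspa5 (chr2:34772005-34772063, plus strand): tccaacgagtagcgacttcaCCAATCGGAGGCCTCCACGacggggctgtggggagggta
Hsp90b1 (chr10:86705618-86705676, minus strand): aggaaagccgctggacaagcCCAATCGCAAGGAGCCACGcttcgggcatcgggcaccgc
Hsp90b1 (chr10:86705513-86705571, minus strand): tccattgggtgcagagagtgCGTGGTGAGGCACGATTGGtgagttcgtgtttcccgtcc
Calr (chr8:84847055-84847113, minus strand): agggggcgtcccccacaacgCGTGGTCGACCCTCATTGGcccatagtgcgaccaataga
Pdia6 (chr12:17266471-17266529, plus strand): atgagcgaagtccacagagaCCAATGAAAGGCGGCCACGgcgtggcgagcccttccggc
Herpud1 (chr8:94386357-94386407, plus strand): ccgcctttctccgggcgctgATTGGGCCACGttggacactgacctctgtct
The first base of the element lay 65 bases before the start of Hspa5, 212 and 107 before that of Hsp90b1, 162 before that of Calr, 98 before that of Pdia6 and 52 before that of Herpud1. The Xbp1-type element UPRE, TGACGTGG, was in none of the 10 windows and in 222 of all windows (0.676%). The Atf4-type element CARE, TGATGNAA, was in the Herpud1 window and in 1304 of all windows (3.97%). Neither ERSE form had a match in the windows of Pdia4, Xbp1, Atf4, Ddit3 or Dnajb9, which says only that these letters are not in these 300 bases.

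**Figure D1:**
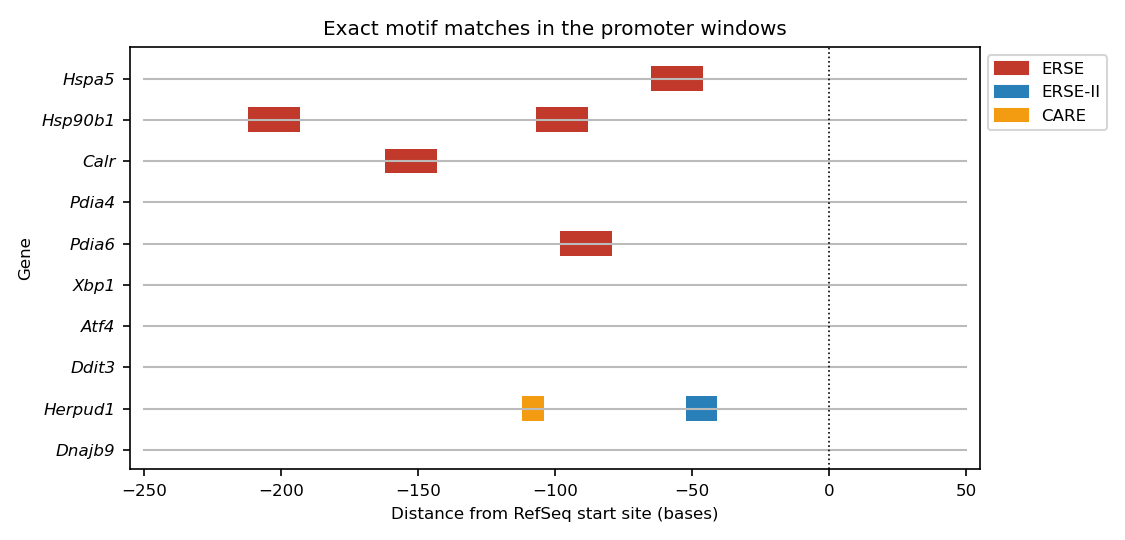
Exact motif matches in the promoter window of each of the 10 genes, with distance in bases from the RefSeq start site on the x axis (0, dotted line). Hspa5, Hsp90b1, Calr and Pdia6 carry ERSE and Herpud1 carries ERSE-II and CARE. The other windows are empty.

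The libraries differed in depth and in cell makeup, which bears on every value given here. Depth ran between 21037819 and 53081638 reads, and the share of haemoglobin transcripts was highest in Csf1r_het 2, at 58.8%, and lowest in WT 1, at 16.1%. Csf1r_het 2 also had the most genes at 0, 15.6% against 4.98% to 9.88% in the others. All 9 microglial markers (such as P2ry12 and Cx3cr1) were above 0 in every library, and their sum was 177367 to 213357 normalized counts in Csf1r_het, 228454 to 320398 in Csf2het, 187164 to 246613 in Dhet and 75822 to 161511 in WT. The lowest sum was in WT 2, which also had the highest sum of the 10 monocyte markers (such as Plac8), 241912 against 13701 to 103000 elsewhere. Transcripts of the choroid plexus (Ttr, 226138 to 1409440 normalized counts) and of neutrophils (S100a8, 10476 to 285184) were present in all 11 libraries. Dhet 2 differed from the other 10 libraries in Ddx3y (717 normalized counts, at most 16.3 elsewhere) and Xist (4.02, at least 3011 elsewhere). Every comparison with Dhet includes this library. It came from a 24-month-old mouse, so leaving out the 24-month-old mice removes this difference along with the age. The targeted gene Csf1r had 17017, 40567 and 24022 normalized counts in Csf1r_het, 53873, 58211 and 66762 in Csf2het, 40151 and 30254 in Dhet, and 93319, 41261 and 63538 in WT. The Csf1r level of WT 2 was thus close to that of Csf1r_het 2. In bulk RNA, fewer cells of a type and less RNA per cell cannot be told apart.

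All 10 genes were well expressed. Per kilobase of exon, the mean level over the 11 libraries was highest for the chaperones Calr (3438 normalized counts), Hsp90b1 (2936) and Hspa5 (2419). Xbp1 (1686), Pdia6 (1545) and Herpud1 (1340) followed. Pdia4 (810), Atf4 (590), Dnajb9 (325) and Ddit3 (295) were lowest. The value with the fewest reads, Ddit3 in Csf1r_het 2, rested on 319.

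None of the 10 genes passed the test for a change in any genotype. Values were fitted with limma across 13223 genes (those averaging 10 normalized counts or more), on log2(normalized count + 1), and a gene was called at a Benjamini-Hochberg adjusted p of at most 0.05. Against WT, limma called 0 of the 10 in Csf1r_het (1.32% of all tested genes were called), 0 in Csf2het (3.65%) and 0 in Dhet (0.529%). Between genotypes it called 0 in Dhet against Csf1r_het (0.00756% of all genes), 0 in Dhet against Csf2het (0.0227%) and 0 in Csf1r_het against Csf2het (0.0227%). For the interaction, the part of the Dhet value beyond the sum of the changes in Csf1r_het and Csf2het, it called 0 as well (1.85%). In every one of these 7 comparisons edgeR and DESeq2 on the recovered reads also called 0 of the 10. At an unadjusted limma p under 0.05 the count was 0 in all 3 comparisons with WT, where 16.2%, 17.3% and 10.1% of all genes passed. It was 1, Herpud1, in Dhet against Csf1r_het (10.5% of all genes) and in Csf1r_het against Csf2het (4.48%), and 0 in Dhet against Csf2het (8.19% of all genes) and for the interaction (18%).

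The fold changes against WT all had 95% intervals that included 0. On the log2 scale they ran between -0.62 and 0.56 in Csf1r_het, between -0.32 and 0.51 in Csf2het and between -0.43 and 0.51 in Dhet. The 95% intervals reached 0.71 to 1.27 to each side of these values for Csf1r_het and Csf2het and 0.79 to 1.42 for Dhet. A change of 1 on the log2 scale was thus outside the interval for some of the 10 genes and inside it for others. The median log2 fold change of the 10 was -0.16 in Csf1r_het (-0.12 over all tested genes), 0.22 in Csf2het (-0.025) and 0.16 in Dhet (0.021). Positive values were found for 5, 6 and 8 of the 10 in Csf1r_het, Csf2het and Dhet. In Csf2het 9 were positive when the values were rescaled by TMM or centred on the library median, and in Dhet 9 were positive when haemoglobin was left out, which also moved the median of all genes to 0.23. No gene separated a heterozygous group completely from WT, while 21.4%, 25.2% and 26.1% of all tested genes did so in Csf1r_het, Csf2het and Dhet. The summed level of the 10 genes was 46258 ± 9376 normalized counts in Csf1r_het, 55240 ± 7898 in Csf2het, 53629 ± 586 in Dhet and 49830 ± 18674 in WT (SD, n = 3, 3, 2 and 3).

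**Figure D2:**
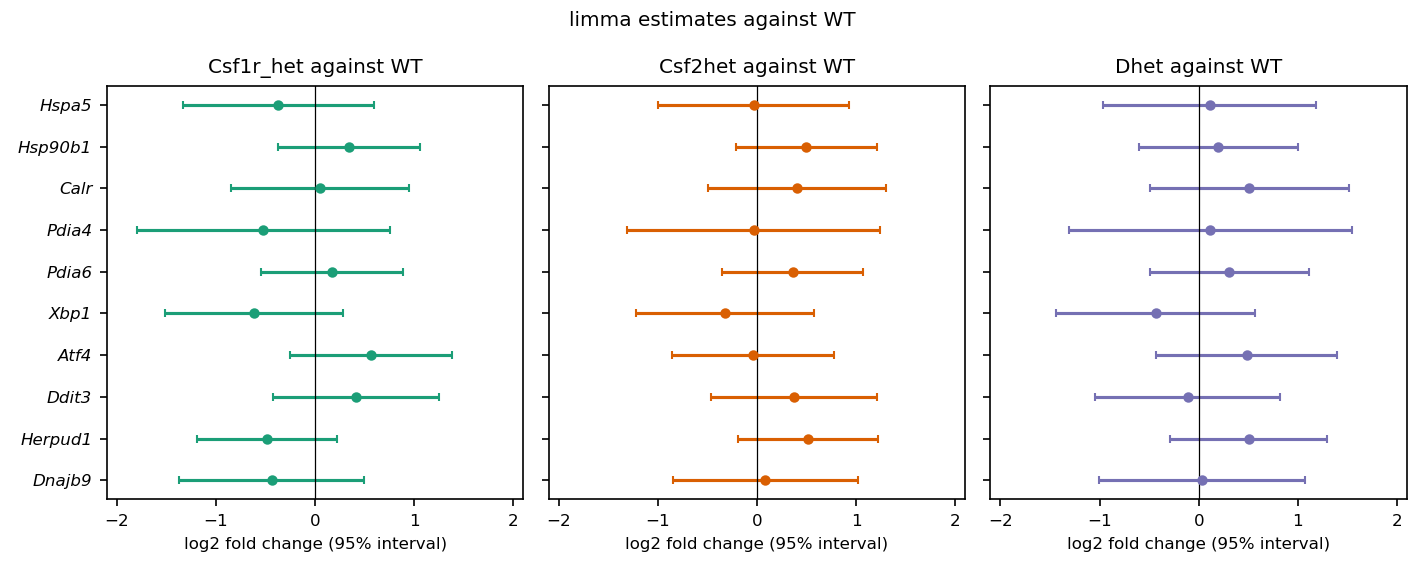
limma log2 fold change of each gene (points) with its 95% interval (bars) in Csf1r_het, Csf2het and Dhet, each against WT. Every interval includes 0, and the widest belong to Pdia4.

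**Figure D3:**
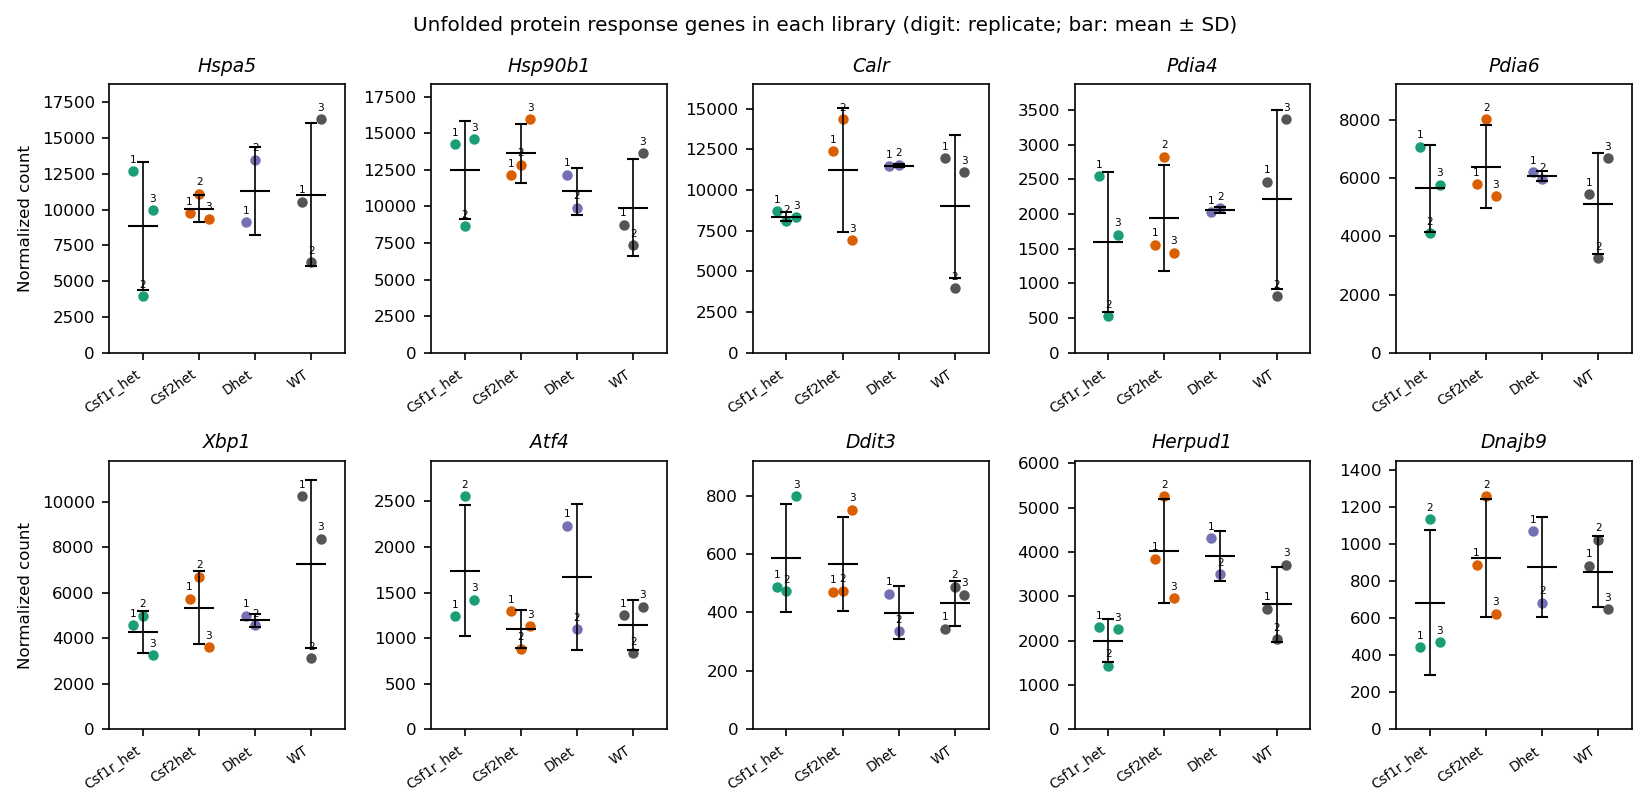
Normalized count of each gene in each library (points, numbered by replicate), with the mean and SD of each group (bars), from 0 on each y axis. WT 2 is the lowest WT library for 8 of the 10 genes, and no heterozygous group lies wholly apart from WT.

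Hspa5 (BiP) is the main chaperone of the endoplasmic reticulum and keeps the sensors inactive by binding them. Its row, ENSMUSG00000026864.13, lies at chr2:34771970-34777547 on mm10. Hspa5 had 12661, 3964 and 9958 normalized counts in Csf1r_het, 9737, 11100.5 and 9354 in Csf2het, 9099 and 13492 in Dhet, and 10553, 6307 and 16287 in WT. Csf1r_het 2 was lowest of all 11 libraries and WT 3 highest, so the spread within those groups covered the other groups. The log2 fold change of Hspa5 against WT was -0.37 (95% interval -1.34 to 0.59, limma adjusted p = 0.718) in Csf1r_het, -0.034 (-0.996 to 0.93, limma adjusted p = 0.984) in Csf2het and 0.11 (-0.97 to 1.19, limma adjusted p = 0.958) in Dhet. Without Csf1r_het 2 the first of these was 0.13.

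Hsp90b1 (Grp94), the Hsp90 of the endoplasmic reticulum, varied least of the 10, with 2.16-fold between the highest and the lowest library. It had 14242, 8634 and 14608 normalized counts in Csf1r_het, 12132, 12853 and 15932 in Csf2het, 12174 and 9909.6 in Dhet, and 8749, 7363 and 13635.5 in WT. WT held the lowest library of the 11, and the group means were in the order Csf2het, Csf1r_het, Dhet and WT, with overlapping ranges. The log2 fold change was 0.34 (SE 0.33) in Csf1r_het, 0.50 (SE 0.33) in Csf2het and 0.20 (SE 0.37) in Dhet, with limma adjusted p = 0.640, 0.492 and 0.889.

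Calr (calreticulin) is a lectin chaperone that binds calcium and newly made glycoproteins. It had 8690, 8102 and 8330 normalized counts in Csf1r_het, 12416, 14343 and 6943 in Csf2het, 11465 and 11564 in Dhet, and 11982, 3971 and 11108 in WT. The Csf1r_het and Dhet libraries lay within narrow bands, both Dhet libraries above all 3 Csf1r_het libraries, whereas Csf2het and WT each had a low library. In Dhet against Csf1r_het, where 33% of all tested genes did not overlap, the log2 difference was 0.46 (SE 0.46, limma adjusted p = 0.692). Against WT the log2 fold change of Calr was 0.050 (95% interval -0.85 to 0.95), 0.41 (-0.49 to 1.31) and 0.51 (-0.49 to 1.51) in Csf1r_het, Csf2het and Dhet. The sign of all 3 turned when WT 2 was left out, to -0.46, -0.10 and -0.0028.

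Pdia4 and Pdia6 are protein disulfide isomerases, enzymes that form and rearrange disulfide bonds. Pdia4 had 2542, 530.5 and 1703 normalized counts in Csf1r_het, 1557, 2826 and 1443 in Csf2het, 2026 and 2085 in Dhet, and 2467, 818 and 3363 in WT. It varied most, 6.34-fold between the lowest library, Csf1r_het 2, and the highest, WT 3. Its spread within groups, an SD of 0.90 on the log2 scale, was at the 90.2 percentile of the 5410 genes with a mean in the same range as the 10. The log2 fold changes of Pdia4 against WT, -0.52, -0.032 and 0.12 in Csf1r_het, Csf2het and Dhet, were all smaller than their standard errors of 0.59, 0.59 and 0.66.

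Pdia6 was steadier, with 7080, 4107 and 5772 normalized counts in Csf1r_het, 5797, 8012 and 5374 in Csf2het, 6193 and 5956 in Dhet, and 5442, 3238 and 6683 in WT. Csf2het 2 was highest and WT 2 lowest, and the ranges of all 4 groups overlapped. Its log2 fold change against WT was 0.17 (SE 0.33) in Csf1r_het, 0.36 (SE 0.33) in Csf2het and 0.31 (SE 0.37) in Dhet, with limma adjusted p = 0.842, 0.642 and 0.805.

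Xbp1, the transcription factor activated by Ire1, had the lowest fold change against WT in all 3 heterozygous groups among the 10. It had 4567, 4999 and 3253 normalized counts in Csf1r_het, 5742, 6709.9 and 3597 in Csf2het, 5001 and 4583 in Dhet, and 10255, 3139.8 and 8377 in WT. WT 1 and WT 3 were the highest of the 11 libraries and WT 2 the lowest, so WT spanned every heterozygous value. The log2 fold change was -0.62 (95% interval -1.52 to 0.28) in Csf1r_het, -0.32 (-1.22 to 0.58) in Csf2het and -0.43 (-1.44 to 0.57) in Dhet, with limma adjusted p = 0.490, 0.766 and 0.781. Without WT 2 the values were -1.14, -0.84 and -0.95, with limma adjusted p = 0.0624, 0.153 and 0.450. Leaving out WT 1 instead gave -0.29, 0.013 and -0.10. The summed level of the plasma and B cell markers, cells in which Xbp1 is abundant, was 6934 to 68972 normalized counts in Csf1r_het, 7451 to 28470 in Csf2het, 11094 to 20388 in Dhet and 11904 to 40314 in WT. Of those 11 markers, 3 were at 0 in some Csf1r_het library, 2 in some Dhet library and 0 in Csf2het or WT. None was at 0 throughout a group. Their part in the Xbp1 values was not tested.

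Atf4, the factor that Perk favours, drives genes of amino acid supply and redox balance. It had 1242, 2559 and 1421 normalized counts in Csf1r_het, 1293, 882 and 1131 in Csf2het, 2233 and 1100 in Dhet, and 1248, 836 and 1346 in WT. Csf1r_het 2 and Dhet 1 stood above the other 9 libraries, which lay between 836 and 1421. The log2 fold change of Atf4 against WT was 0.56 (SE 0.38) in Csf1r_het, -0.040 (SE 0.38) in Csf2het and 0.49 (SE 0.42) in Dhet, with limma adjusted p = 0.490, 0.978 and 0.719. The Csf1r_het value was 0.25 without the 24-month-old Csf1r_het 2, the library with the most haemoglobin. It was 0.35 without WT 2, the lowest library for Atf4, and 0.036 without WT 2 and Csf1r_het 2 together. With haemoglobin genes left out of the scaling the Csf1r_het value was 0.58. The part of age, haemoglobin or cell makeup in it was not tested.

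Ddit3 (CHOP), a target of Atf4 tied to cell death under lasting stress, was the least abundant gene. It had 488, 473 and 799 normalized counts in Csf1r_het, 471, 475 and 752 in Csf2het, 464 and 335 in Dhet, and 345, 488 and 461 in WT. Csf1r_het 3 and Csf2het 3 stood apart at the top, and the other 9 libraries were between 335 and 488. Both Dhet values were below every value in Csf1r_het and Csf2het, by as little as 464 against 471. Groups apart in this way were common among all tested genes, 33% in Dhet against Csf1r_het and 29.6% in Dhet against Csf2het. The log2 difference was -0.53 (SE 0.43, limma adjusted p = 0.617) in Dhet against Csf1r_het and -0.48 (SE 0.43, limma adjusted p = 0.813) in Dhet against Csf2het. Against WT the log2 fold change was 0.42, 0.37 and -0.11 in Csf1r_het, Csf2het and Dhet. The interaction of Ddit3, -0.90 (95% interval -2.16 to 0.36, limma adjusted p = 0.439), was the largest of the 10 in size.

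Herpud1, a membrane protein of the degradation complex that clears misfolded proteins, separated the groups most. It had 2301, 1437 and 2266 normalized counts in Csf1r_het, 3852, 5266 and 2957 in Csf2het, 4318 and 3506 in Dhet, and 2722, 2036 and 3716 in WT. The 3 Csf1r_het libraries were below every Csf2het and Dhet library, and WT overlapped all 3 heterozygous groups. The group means were 2001 ± 489 in Csf1r_het, 4025 ± 1164 in Csf2het, 3912 ± 574 in Dhet and 2825 ± 844 in WT (SD). In order of level these are Csf2het, Dhet, WT and Csf1r_het, and the ranges of neighbours in that order overlap. Groups accounted for 64.1% of the variation of Herpud1 on the log2 scale, against a median of 39.1% over the 5410 genes of like abundance. Every other gene of the 10 was below that median, from 10.5% for Pdia4 to 37.4% for Ddit3.

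The largest difference of Herpud1 was between the single heterozygotes. In Csf1r_het against Csf2het it was -1.0 on the log2 scale, or 0.50-fold (95% interval -1.71 to -0.29 on the log2 scale). The unadjusted limma p was 0.00927 and the adjusted p was 1. Across all tested genes 12.1% did not overlap between these groups and 4.48% had an unadjusted p under 0.05. In Dhet against Csf1r_het the difference was 0.99 on the log2 scale (0.20 to 1.78), with an unadjusted limma p of 0.0180 and an adjusted p of 0.437, where 10.5% of all genes had an unadjusted p under 0.05. With each library left out in turn, the first difference ran between -1.20 and -0.78 and the second between 0.77 and 1.14. Against WT the log2 fold change of Herpud1 was -0.49 (SE 0.33), 0.51 (SE 0.33) and 0.51 (SE 0.37) in Csf1r_het, Csf2het and Dhet, with limma adjusted p = 0.492, 0.471 and 0.657. Cell makeup differed between the same groups. In normalized counts, the microglial markers summed to 177367 to 213357 in Csf1r_het and 228454 to 320398 in Csf2het. In Dhet and WT these sums were 187164 to 246613 and 75822 to 161511. The monocyte markers summed to 53108 to 65891 in Csf1r_het and 13701 to 21859 in Csf2het. Their sums were 65814 to 73886 in Dhet and 78588 to 241912 in WT. The part of these markers in the Herpud1 differences was not tested.

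Dnajb9 (ERdj4) is a J-domain partner of Hspa5 and a known target of Xbp1. It had 442, 1134 and 470 normalized counts in Csf1r_het, 889, 1259 and 624 in Csf2het, 1069 and 684 in Dhet, and 883, 1023 and 647 in WT. Csf1r_het 1 and Csf1r_het 3 were the lowest of the 11 libraries and Csf1r_het 2 was the second highest. The log2 fold change of Dnajb9 against WT was -0.44 (SE 0.43) in Csf1r_het, 0.085 (SE 0.43) in Csf2het and 0.032 (SE 0.48) in Dhet, with limma adjusted p = 0.651, 0.952 and 0.990. Without Csf1r_het 2 the first value was -0.87.

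Much of the variation of the 10 genes followed single libraries. WT 2 was the lowest of the 11 libraries for 5 genes (Hsp90b1, Calr, Pdia6, Xbp1 and Atf4) and below the gene's own mean for 9 of the 10. The exception was Dnajb9. The median deviation of the 10 genes in WT 2 was -0.65 on the log2 scale, against 0.014 for all tested genes. Csf1r_het 2 was lowest for Hspa5, Pdia4 and Herpud1, yet highest for Atf4. Csf2het 2, the deepest library, was highest for Calr, Pdia6, Herpud1 and Dnajb9, with a median deviation of 0.45. The low values of WT 2 came with its low microglial and high monocyte marker sums, and those of Csf1r_het 2 with its haemoglobin share. The part of these in the gene values was not tested. Of the 10 genes, 5 had a within-group spread above the median of genes of like abundance (SD 0.49 on the log2 scale).

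**Figure D4:**
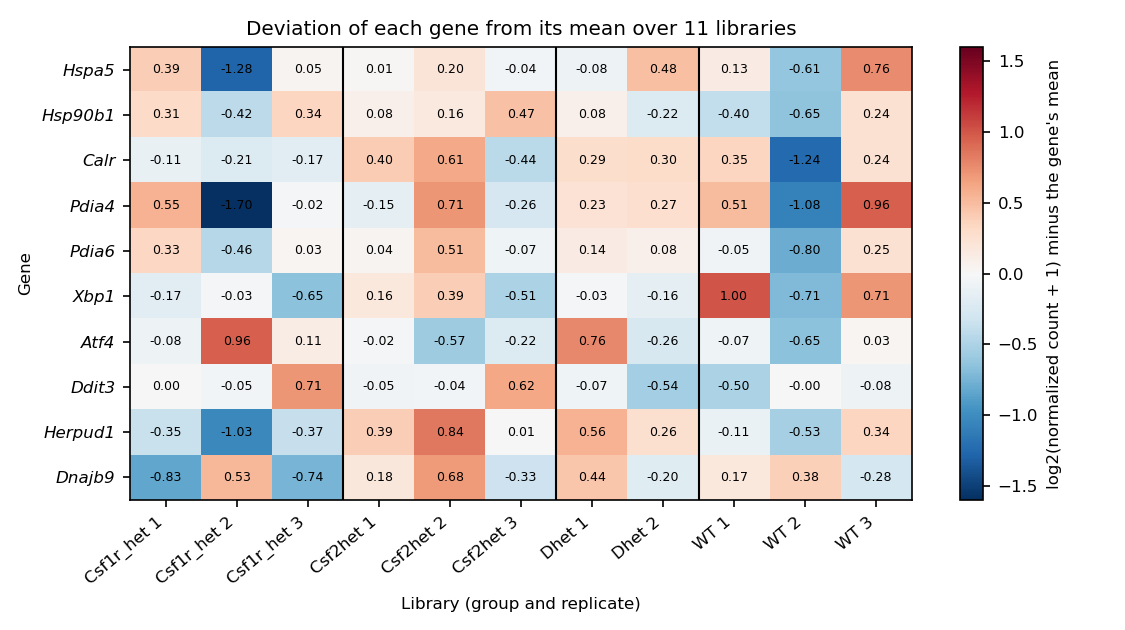
Log2(normalized count + 1) of each gene minus the gene's mean over the 11 libraries, by library, with black lines between the 4 groups (blue below the mean, red above). The column of WT 2 is blue for most genes, and Csf1r_het 2 is dark blue for Hspa5, Pdia4 and Herpud1 and red for Atf4.

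Hspa5 was followed most closely, among the 10, by a disulfide isomerase. Likeness was measured as the root mean square difference of the log2 deviations over the 11 libraries, over a pool of 11929 other genes averaging 50 normalized counts or more. The genes nearest to Hspa5 were Paics (0.21), an enzyme of purine synthesis, Stk25 (0.22), a protein kinase, and Cct3 (0.23), a subunit of a cytosolic chaperonin. Among the 10, Pdia4 was nearest to Hspa5 at 0.31, rank 26, followed by Pdia6 at 0.35 and Herpud1 at 0.43. Ddit3, Atf4 and Dnajb9 were the farthest, at 0.68, 0.84 and 0.88. Of genes picked after their values were seen, the nearest to Pdia6 was another disulfide isomerase, Pdia3 (0.14), and the nearest to Hsp90b1 was Derl2 (0.16), a degradation factor of the endoplasmic reticulum. Across roles, Hsp90b1 lay nearer to Ddit3 (0.32) than to Hspa5 (0.44), and Calr nearer to Xbp1 (0.38) than to Hspa5 (0.50). The distance also depends on each gene's own spread and is small between genes that vary little. The root mean square of the deviations was 0.35 for Hsp90b1, 0.36 for Ddit3 and 0.53 for Hspa5. It was 0.50 for Calr and 0.52 for Xbp1. A smaller distance is thus not by itself a closer shared pattern. These distances share the depth and makeup of each library and are a description.

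The wider pathway was read through 6 lists that exclude the 10 genes. Of the 9 sensors and regulators (such as Atf6 and Eif2ak3), limma called 0 in Csf1r_het, Csf2het and Dhet against WT, with 3, 2 and 1 at an unadjusted p under 0.05. Of all tested genes 16.2%, 17.3% and 10.1% had such an unadjusted limma p. DESeq2 called 0, 0 and 1 and edgeR 0 in each. No share over all genes is given for the DESeq2 and edgeR counts of the 6 lists. Those counts are therefore not read as many or few. The lowest p was that of the sensor Atf6 in all 3 comparisons. Atf6 had 634, 1054 and 640.1 normalized counts in Csf1r_het, 524, 788 and 748 in Csf2het, 560.2 and 421 in Dhet, and 1546, 1632 and 1064 in WT. All 8 heterozygous values lay below all 3 WT values, with a log2 fold change of -0.88 (SE 0.35), -1.04 (SE 0.35) and -1.52 (SE 0.39) in Csf1r_het, Csf2het and Dhet. The limma adjusted p of Atf6 was 0.239, 0.129 and 0.152, so limma called none. The DESeq2 adjusted p was 0.179, 0.0613 and 0.0110, so DESeq2 called Atf6 in Dhet. Of all tested genes, 21.4%, 25.2% and 26.1% did not overlap with WT in Csf1r_het, Csf2het and Dhet. These 3 comparisons share their WT libraries.

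Of 20 further chaperones and foldases of the endoplasmic reticulum, limma called 0 against WT in each group, with 4, 4 and 0 at an unadjusted p under 0.05 in Csf1r_het, Csf2het and Dhet. Among all tested genes the shares at that unadjusted limma p were 16.2%, 17.3% and 10.1%. DESeq2 called 3, 2 and 0 and edgeR 0, counts given without a share over all genes. The lowest p was that of Ero1l, which reoxidises disulfide isomerases, in Csf1r_het (log2 fold change -1.22, limma adjusted p = 0.0932). In Csf2het and Dhet it was that of Sdf2l1, a partner of Hspa5 (1.21 and 0.67, limma adjusted p = 0.0832 and 0.585). The DESeq2 adjusted p was 0.00111 for Ero1l in Csf1r_het, and 0.0293 and 0.594 for Sdf2l1 in Csf2het and Dhet. The median log2 fold change of this list was -0.14, 0.26 and -0.049.

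Of 17 degradation genes, limma called 0 in each group against WT. In Csf1r_het, Csf2het and Dhet, 5, 3 and 0 had an unadjusted limma p under 0.05 (16.2%, 17.3% and 10.1% of all tested genes). DESeq2 called 1, 2 and 0 and edgeR 0, counts given without a share over all genes. Vcp, the ATPase that pulls proteins out of the membrane, led in Csf1r_het at -0.89 on the log2 scale (limma adjusted p = 0.152), and Selenos, which recruits Vcp, in Csf2het at 0.96 (limma adjusted p = 0.0534). By DESeq2 the adjusted p was 0.0606 for Vcp in Csf1r_het and 0.00177 for Selenos in Csf2het. Of 30 genes of the secretory pathway, limma called 0. At an unadjusted limma p under 0.05 there were 6, 2 and 1, beside the same shares of all tested genes. DESeq2 called 1, 1 and 0 and edgeR 0, again without a share over all genes. Ssr3, a subunit of the translocon-associated complex, led in Csf1r_het at -1.17 and in Csf2het at -0.95 (limma adjusted p = 0.0921 and 0.126). Dad1, a subunit of oligosaccharyltransferase, led in Dhet at -1.33 (limma adjusted p = 0.444). The DESeq2 adjusted p was 0.0231 and 0.0802 for Ssr3 and 0.129 for Dad1. Dad1 had 7222, 18427 and 3728 normalized counts in WT, highest in WT 2, and 3987 and 2480 in Dhet.

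Of 28 target genes of the Perk and Atf4 branch, limma called 0 in each group against WT, with 6, 7 and 5 at an unadjusted p under 0.05 in Csf1r_het, Csf2het and Dhet. Among all tested genes 16.2%, 17.3% and 10.1% had such an unadjusted limma p. DESeq2 called 1, 5 and 2 and edgeR 0, without a share over all genes, so these counts are not read as an excess. The median log2 fold change of this list was -0.60 in Csf1r_het (-0.12 over all tested genes), -0.39 in Csf2het (-0.025) and -0.067 in Dhet (0.021). Positive values were found for 7, 8 and 13 of the 28. Ddit4, an inhibitor of mTORC1, led in Csf1r_het (-3.27, limma adjusted p = 0.101). Eif4ebp1, a repressor of translation initiation, led in Csf2het (-1.34, limma adjusted p = 0.0584). Nupr1, a stress-induced chromatin protein, led in Dhet (-2.32, limma adjusted p = 0.134). By DESeq2 the adjusted p of these was 0.0108, 0.0212 and 0.00180. Ddit4 in Csf1r_het rested on only 6, 46 and 18 reads. Nupr1 had 1565, 5743 and 1097 normalized counts in WT, highest in WT 2, and 434 and 424 in Dhet. Between genotypes, limma called 0 genes of any of the 6 lists. By list, 0 to 6 had an unadjusted limma p under 0.05 and edgeR called 0. Of all tested genes 10.5%, 8.19% and 4.48% had such an unadjusted p in Dhet against Csf1r_het, Dhet against Csf2het and Csf1r_het against Csf2het. DESeq2 called 2 further chaperones in Dhet against Csf1r_het and 0 elsewhere, with no share over all genes beside them.

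The cytosolic heat shock list, which answers unfolded proteins outside the endoplasmic reticulum, held the called gene of the comparisons with WT. Of 20 genes limma called 1 higher in Csf1r_het, 1 higher in Csf2het and 0 in Dhet, with 6, 4 and 2 at an unadjusted p under 0.05. Over all tested genes limma called 1.32%, 3.65% and 0.529%, and 16.2%, 17.3% and 10.1% had an unadjusted limma p under 0.05. DESeq2 called 3, 3 and 0 and edgeR 0, 1 and 0, counts given without a share over all genes. The called gene was Cryab, a small heat shock protein. Cryab had 7068, 2632 and 5969 normalized counts in Csf1r_het, 4023, 5138 and 4721 in Csf2het, 1619.7 and 2085 in Dhet, and 1266, 1814 and 1616 in WT. All 6 single heterozygous values lay above all Dhet and WT values. How many of all tested genes are split in this way was not measured. Cryab rose by 1.63 on the log2 scale in Csf1r_het (SE 0.35, limma adjusted p = 0.0452) and by 1.57 in Csf2het (SE 0.35, limma adjusted p = 0.0285). In Dhet the log2 fold change was 0.25 (limma adjusted p = 0.863). Leaving out 1 library ended the Cryab call in Csf1r_het for 9 of the 11 libraries, all but WT 2 and Csf1r_het 2 (limma adjusted p between 0.0632 and 0.203). In Csf2het it did so for WT 1 and each Csf2het library (limma adjusted p between 0.085 and 0.127).

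For the interaction limma called 3 genes of these lists, Cryab and the endoplasmic reticulum genes Manf and Ero1l. Manf and Ero1l were 2 of the 20 further chaperones and foldases, and Cryab was 1 of the 20 heat shock genes. Of all tested genes 1.85% were called. Manf, a secreted and reticulum-resident partner of Hspa5, had 3539, 2614 and 4312 normalized counts in Csf1r_het, 2619, 2733 and 3078 in Csf2het, 1686 and 1363 in Dhet, and 1689, 2056 and 1380.4 in WT. All 6 single heterozygous values of Manf were above all Dhet and WT values. Ero1l ran the other way, with 296, 309.7 and 320.1 normalized counts in Csf1r_het, 429.7, 406 and 380.1 in Csf2het, 835 and 738 in Dhet, and 823, 633 and 715 in WT. All 6 single heterozygous values of Ero1l were below all Dhet and WT values. The share of all tested genes split in this way was not measured. Both genes were picked by the interaction in these same values, so this order adds no separate support. The interaction was -1.91 (SE 0.42, limma adjusted p = 0.0401) for Manf, 2.17 (SE 0.49, limma adjusted p = 0.0427) for Ero1l and -2.96 (SE 0.53, limma adjusted p = 0.0191) for Cryab. edgeR gave adjusted p = 0.0555, 0.0426 and 0.0276 and DESeq2 gave 0.00117, 3.42e-05 and 2.27e-05. Leaving out 1 library ended the limma call of Manf and of Ero1l for 9 of the 11 libraries, all but WT 2 and Csf1r_het 2 (limma adjusted p between 0.0725 and 0.111 for Manf and between 0.0737 and 0.145 for Ero1l). It ended that of Cryab for WT 1, Csf1r_het 3, Csf2het 2 and Dhet 1 (limma adjusted p between 0.0513 and 0.0975). The other 4 lists had 0 calls, with 1 to 8 genes at an unadjusted p under 0.05, edgeR 0 and DESeq2 0 to 3 by list. The DESeq2 counts have no share over all genes beside them. Among all tested genes 18% had an unadjusted limma p under 0.05 for the interaction.

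The markers of several cell types also had interactions away from 0. For the choroid plexus, every sum in the single heterozygotes lay above every Dhet and WT sum, as the values of Manf and Cryab did. The sum of all 10 choroid plexus markers was 907654 to 1607630 normalized counts in Csf1r_het, 942720 to 1222910 in Csf2het, 289300 to 647826 in Dhet and 443254 to 700354 in WT, and none was at 0 in any library. Of these 10, 9 had a negative interaction, with a median of -1.63 on the log2 scale and 1 called by limma. The 9 microglial markers all had a negative interaction (median -1.44, 1 called). All 10 monocyte markers had a positive one (median 3.05, 5 called), and so had all 10 neutrophil markers (median 3.78, 0 called by limma, with 2 at an unadjusted p under 0.05, 0 called by edgeR and 2 by DESeq2). The part of these markers in the values of Manf, Ero1l and Cryab was not tested. The 10 genes of the response had interactions between -0.90 and 0.67 and a median of 0.22 (0.15 over all tested genes).

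**Figure D5:**
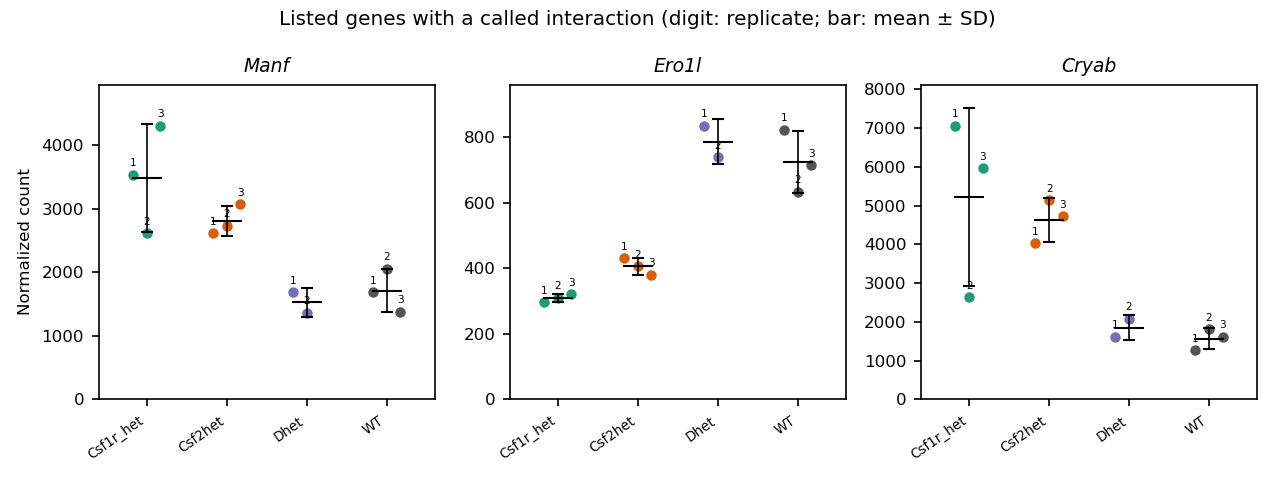
Normalized count of Manf, Ero1l and Cryab in each library (points, numbered by replicate), with the mean and SD of each group (bars). In all 3 genes the Dhet libraries lie near WT, and the libraries of Csf1r_het and Csf2het lie together, above them for Manf and Cryab and below them for Ero1l.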

How the data were processed

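Bulk RNA sequencing of 11 libraries of sorted Tmem119-positive cells was carried out by the authors. The submitters' processing notes name kallisto 0.43.1, the build mm10 and DESeq2. No version of DESeq2, no annotation and no gene filter is given in the sources used here. Each deposited value, a signal called a normalized count here, is a read count scaled by the authors with a factor for its library. Divided by the worth of 1 read (0.479 to 1.48), 100% of values were whole within 0.02 reads, which gave the reads used by edgeR and DESeq2.

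Groups came from the sample labels. The table held normalized values, for which the plan gave limma (edgeR had been meant for raw counts). Genes with a mean of at least 10 were tested (13223, with 1516 left out) in a single limma fit of the 4 groups with a trended prior, on log2(normalized count + 1). Fold changes of low genes are understated on that scale. P-values were adjusted within each of 7 contrasts by Benjamini-Hochberg, and intervals are 95%. The edgeR and DESeq2 tests and 2 further alternatives were added after seeing the data. Software was limma 3.58.1, DESeq2 1.42.0 and edgeR 4.0.16, run in R 4.3.3. The fit was tested on simulated data.

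The 10 genes and all lists were chosen with earlier results of these data known. Genes named from the pathway lists were the called ones, up to 3 a comparison, or else the 1 with the lowest p. From each marker list up to 2 with the highest mean were named, and the 3 genes most like Hspa5. Ddx3y and Xist, the genes most like Pdia6 and Hsp90b1, and Manf and Ero1l for the interaction were named after their values were seen. Levels per kilobase used the exons of GENCODE vM21, and promoters came from RefSeq. No 2 libraries held the same values. A single gene of the microglia marker list is not reported here and was left out of that list.

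The marker lists had these medians of the log2 fold change in Csf1r_het, Csf2het and Dhet against WT: microglia 0.82, 1.43 and 1.04, monocytes -1.24, -2.86 and -0.90, neutrophils -0.76, -0.93 and 2.10, plasma and B cells -1.22, -1.82 and -0.90, and choroid plexus 0.84, 0.94 and 0.091. They were 2.13, 1.05 and 1.40 for neurons, 0.95, 1.28 and 1.44 for astrocytes, 1.13, 1.02 and 1.75 for oligodendrocytes, -0.26, -0.27 and -0.39 for endothelium, 0.98, 0.24 and -0.80 for border macrophages and 0.74, 0.30 and 0.086 for erythroid cells.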

Additional observations from a re-analysis of the deposited data

Results flagged for a closer look

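Manf, Ero1l and Cryab were picked out by a direct test, the interaction term of the limma fit. In it their response to losing a Csf1r copy differed with the Csf2 genotype. Of all tested genes 1.85% were called for this term. The interaction on the log2 scale was -1.91 for Manf (limma adjusted p = 0.0401), 2.17 for Ero1l (limma adjusted p = 0.0427) and -2.96 for Cryab (limma adjusted p = 0.0191). With the other settings the adjusted p ran from 0.00117 to 0.123 for Manf, from 3.42e-05 to 0.145 for Ero1l and from 2.27e-05 to 0.0975 for Cryab. For each gene, every one of the 6 single heterozygous values lay on 1 side of all 5 Dhet and WT values. The genes were picked by the interaction in these same values, so this order adds no separate support. Its share over all tested genes was not measured. None of the 10 genes of the response was picked out by the interaction.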

How the results depend on the processing

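The count of called genes among the 10 was 0 in all 7 comparisons under every alternative run: TMM, median centring, pseudocounts of 0.5 and 10, no filter, only the groups compared, haemoglobin left out, the replicate block, each library left out, edgeR, DESeq2, and without the 24-month-old mice or without WT 2 and Csf1r_het 2. Over all tested genes the count ran from 0 to 825 (174 in the main fit) in Csf1r_het against WT, 172 to 1232 (482) in Csf2het, 0 to 357 (70) in Dhet, 0 to 194 (1) in Dhet against Csf1r_het, 0 to 218 (3) in Dhet against Csf2het, 0 to 61 (3) in Csf1r_het against Csf2het and 14 to 1292 (244) for the interaction. Replicate numbers did not pair the libraries: over 15 same-numbered pairs the correlation of deviations ran from -0.21 to 0.062. The replicate block called 0 of the 10 genes throughout and 28, 256, 48, 0, 0, 0 and 14 of all genes in the order above, and Manf, Ero1l and Cryab lost their interaction under it (limma adjusted p = 0.119, 0.122 and 0.0682) and with haemoglobin left out (0.123, 0.0961 and 0.0719). TMM and median centring also ended that of Ero1l (0.0584 and 0.0628). The interaction calls were lost in 13 of 22 settings for Manf, 14 for Ero1l and 6 for Cryab, and those of Cryab against WT in 13 of 23 for Csf1r_het and 6 for Csf2het.

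Of 781 recomputed log2 fold changes of the 10 genes, 727 kept their sign and 54 did not, and none reached the threshold (lowest adjusted p 0.0511, limma, Xbp1 in Csf1r_het without WT 2 and Csf1r_het 2, where the value was -1.27). The cause of the changes was not tested. In Csf1r_het against WT, Calr was -0.040 by edgeR, -0.018 by DESeq2 and -0.44 without WT 2 and Csf1r_het 2, and Hspa5 and Pdia4 were 0.13 and 0.14 without the 24-month-old mice. In Csf2het against WT, Hspa5, Pdia4 and Atf4 were 0.049, 0.050 and 0.042 by TMM and 0.047, 0.048 and 0.040 by median centring, Atf4 was 0.0027 by DESeq2, and without WT 2 and Csf1r_het 2 Hspa5 was -0.39, Calr -0.10, Pdia4 -0.64 and Atf4 -0.25. In Dhet against WT, Ddit3 and Dnajb9 were 0.061 and -0.18 with the replicate block, Ddit3 was 0.10 without haemoglobin, Pdia4 was -0.11 by edgeR and -0.093 by DESeq2, Hspa5 and Ddit3 were -0.17 and 0.12 without the 24-month-old mice, and Hspa5, Calr and Pdia4 were -0.24, -0.0028 and -0.49 without WT 2 and Csf1r_het 2. Herpud1 in Dhet against Csf2het was 0.032 with the replicate block, 0.21 without haemoglobin and 0.14 without the 24-month-old mice.

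With each library left out in turn, the values that changed sign ran in Csf1r_het against WT from -0.72 to 0.13 for Hspa5, -0.46 to 0.33 for Calr, -1.13 to 0.14 for Pdia4 and -0.13 to 0.39 for Pdia6. In Csf2het against WT they ran from -0.39 to 0.30 for Hspa5, -0.10 to 0.72 for Calr, -0.64 to 0.38 for Pdia4, -0.84 to 0.013 for Xbp1, -0.25 to 0.11 for Atf4 and -0.17 to 0.34 for Dnajb9. In Dhet against WT they ran from -0.24 to 0.44 for Hspa5, -0.0028 to 0.79 for Calr, -0.49 to 0.53 for Pdia4, -0.025 to 0.995 for Atf4, -0.35 to 0.12 for Ddit3 and -0.29 to 0.35 for Dnajb9, and in Dhet against Csf2het from -0.21 to 0.21 for Herpud1. Where 1 Dhet library was left, it was taken to vary like the other groups.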
